A study of Oryza sativa with 3 samples.

Results

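The DREB1 and DREB2 transcription factors of rice were followed in roots exposed to vanadate. Their 9 loci, of the 29859 represented on the array, were chosen by name and locus ID, with earlier results of these data known. They are DREB1A (Os09g0522200), DREB1B (Os09g0522000), DREB1H (Os09g0522100), DREB1C (Os06g0127100), DREB1E (Os04g0572400), DREB1F (Os01g0968800), DREB1G (Os02g0677300), DREB2A (Os01g0165000) and DREB2B (Os05g0346200). The array carried 22 probes for them, of which 16 probes of 7 loci had enough signal to be tested. Seedlings of cultivar TN67, a japonica rice, were germinated at 37 °C and grown at 26 °C, both in darkness, and were 6 days old. Vanadate-treated roots received 1 mM vanadate, an oxyanion that resembles phosphate, and control roots received water. Each of the 3 biological replicates was a pair of RNA pools, combining roots collected after 1 h and 3 h, with vanadate RNA in Cy5 and water RNA in Cy3 on 1 array. The pooling merges the 2 times, and because the dyes were never exchanged, a difference between the dyes and one between the treatments cannot be told apart.

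DREB proteins carry a single AP2 DNA-binding domain and activate genes whose promoters hold the dehydration-responsive element. The DREB1 branch, also called CBF, is best known from the cold response, in which its transcripts appear quickly and briefly. The DREB2 branch is best known from dehydration, salt and heat, and its best studied rice members are DREB2A and DREB2B. Each of the 9 names belonged to 1 gene of the RefSeq annotation of assembly ASM3414082v1, where DREB1B, DREB1H and DREB1A follow each other on chromosome 9 with no other coding gene between them.

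Log2 ratios are vanadate over water after background correction and loess normalization within each array, so 0 means equal signal and 1 a doubling. A gene or probe is called when limma's test of the mean of 3 arrays gave an adjusted p under 0.05, with the adjustment over all tested probes. Every SE given is limma's moderated SE, in which the variance of a probe is drawn towards that of all tested probes. It can understate the spread between arrays for uneven probes and overstate it for very even ones. The arrays of replicates 1 and 2 lay on one slide and that of replicate 3 on another, scanned on another day. Between 68.96% and 76.1% of gene spots were well above background per channel and array, with 0 saturated. The 2 loci taken as markers of root endodermis and exodermis had signal clearly over background in water and in vanadate on every array. In roots measured in bulk, fewer cells of a type and less RNA per cell cannot be told apart.

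Vanadate-treated roots held more transcript of both DREB2 factors and of DREB1C. DREB2A was 1.96-fold higher and DREB2B 1.44-fold higher on their representative probes, with the 3 arrays close to each other. DREB1C was 3.21-fold higher, with the largest ratio on replicate 3. DREB1H was called higher as well, at 1.28-fold, on a single very bright probe whose identity could not be checked. DREB1A, DREB1B and DREB1E were not called, and each had arrays on both sides of 0. DREB1F and DREB1G gave no signal above background. In all, 4 of the 7 tested loci were called higher and 0 lower in limma, against 29.1% of the 22150 tested genes called higher and 20.6% called lower. The numbers at an unadjusted p under 0.05 in limma were 5 higher and 0 lower, beside 7178 higher and 5475 lower of the 22150 tested genes. Because probes were tested only where a channel had signal, the 7 loci do not stand for all 9. Counted over probes, 7 of 16 were called higher and 0 lower, beside 28.4% and 20.8% of all tested probes.

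**Figure D1:**
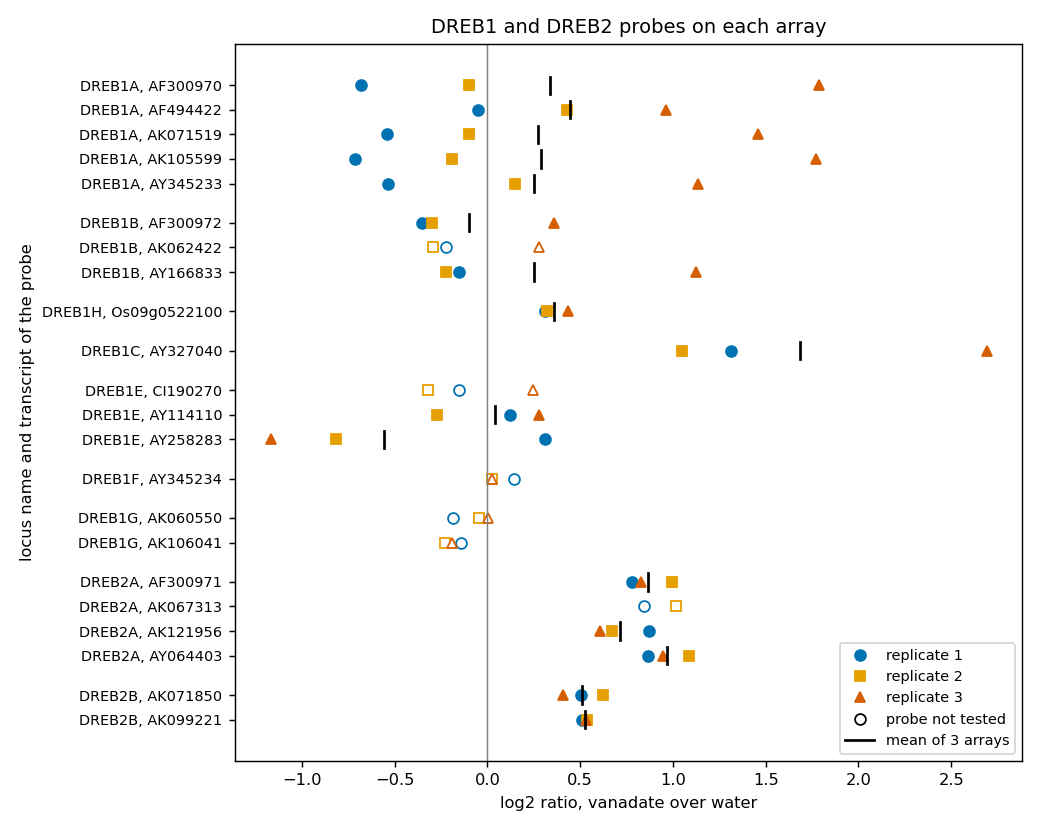
Log2 ratio of vanadate over water (horizontal axis) for each of the 22 probes (rows, by locus and transcript), with 1 symbol per replicate, open where the probe was not tested, and a bar at the mean of 3 arrays. The symbols of DREB2A and DREB2B lie together to the right of 0, while those of DREB1A and DREB1B spread across 0 with replicate 3 at the right.

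DREB2A encodes the activator that in rice is induced by dehydration and high salt. Its representative probe, to transcript AY064403, read 0.87, 1.09 and 0.95 on replicates 1, 2 and 3 as log2 ratios. All 3 arrays were thus higher in vanadate by a similar amount, with a mean of 0.97 ± 0.08 (SE, n = 3, limma adjusted p = 0.000241). Its log2 channel level was 9.53, 9.58 and 9.59 in water and 10.39, 10.67 and 10.54 in vanadate, so the groups did not overlap. The same held for the representative probes of DREB2B, DREB1C and DREB1H. How many of all tested genes separate in this way was not counted, so the separation cannot be called particular to these loci. The probe to AF300971 read 0.78, 1.00 and 0.83, and the probe to AK121956 read 0.87, 0.67 and 0.61. Both of these probes were also called higher, with means of 0.87 ± 0.08 (SE) and 0.72 ± 0.09 (SE) and limma adjusted p of 0.000396 and 0.00103. The fourth DREB2A probe, to AK067313, was left out of the test because its spot on replicate 3 carried an outlier flag. It read 0.85 and 1.01 on replicates 1 and 2, and the authors' deposited table gives 1.02 for replicate 3. The 4 probes for this locus thus pointed the same way on every array they were measured on.

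DREB2B, a DREB2 factor whose rice transcript is made in a functional and a non-functional splice form, is read by 2 probes that do not name a splice form. The probe to AK099221 had log2 ratios of 0.51, 0.53 and 0.53, the most even of all member probes. Its mean was 0.53 ± 0.08 (SE, n = 3, limma adjusted p = 0.00198). The probe to AK071850 read 0.51, 0.62 and 0.41, with a mean of 0.51 ± 0.08 (SE, limma adjusted p = 0.00324). On AK099221 the channel level was 9.47, 9.52 and 9.27 in water and 9.98, 10.06 and 9.80 in vanadate. Every vanadate level of that probe lay above every water level, whereas on AK071850 the levels of the groups overlapped. Under median centring in place of loess the mean of the AK099221 probe was 0.40 and its call was lost (limma adjusted p = 0.0644).

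DREB1C, a DREB1 factor described in rice as expressed without stress, had 1 probe, to AY327040. The log2 ratios were 1.31, 1.05 and 2.69 on replicates 1, 2 and 3, so all arrays were higher in vanadate and replicate 3 most of all. The mean was 1.68 ± 0.30 (SE, n = 3, limma adjusted p = 0.00453). The SD of the 3 arrays was 0.88, so for this probe the moderated SE understates the spread between arrays. The channel level was 7.44, 7.08 and 6.91 in water and 8.75, 8.13 and 9.61 in vanadate, and the groups did not overlap. Water signal stood clear of background on 2 of the 3 arrays, so this ratio depends on how background is removed. With the processed signals of the scanner software the mean log2 ratio was 2.61 (limma adjusted p = 0.0123). On the slide shared by replicates 1 and 2 it was 1.18 (limma adjusted p = 5.82e-05).

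**Figure D2:**
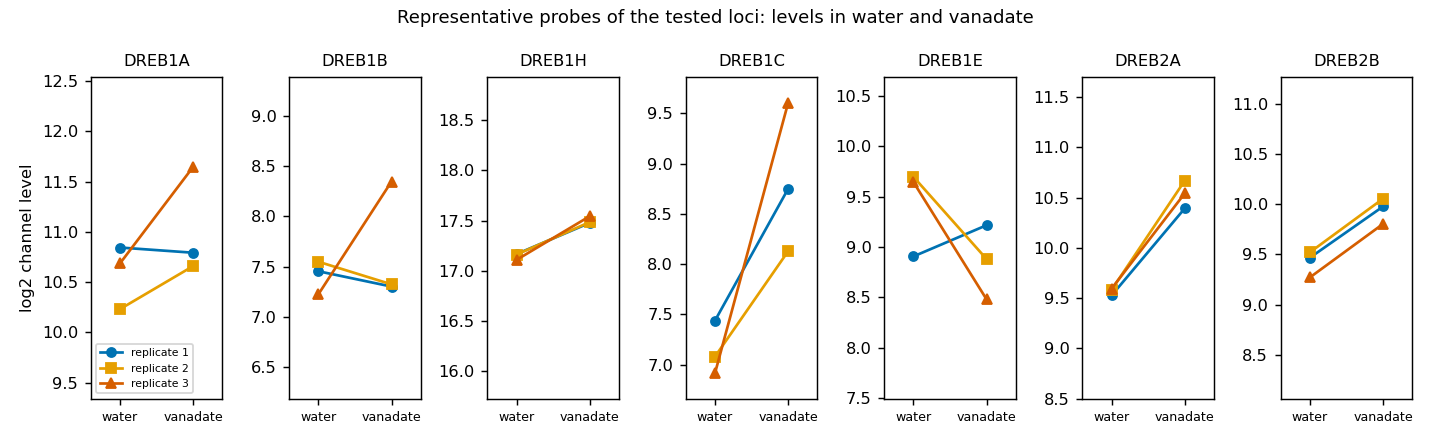
Log2 channel level (vertical axis, the same span of 3.2 in each panel) of the representative probe of the 7 tested loci in water and vanadate, with a line joining the channels of each replicate. The lines of DREB2A and DREB2B run in parallel, DREB1C rises on every array and most on replicate 3, and the lines of DREB1A, DREB1B and DREB1E differ in direction.

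DREB1H, the DREB1 gene between DREB1B and DREB1A, is read by 1 probe that is named by the locus alone. Without its sequence, whether this probe also reads another transcript was not tested. Log2 ratios of 0.31, 0.32 and 0.43 gave a mean of 0.36 ± 0.08 (SE, n = 3, limma adjusted p = 0.0108). All arrays were slightly higher in vanadate. The probe is among the brightest on the array, with 63 of 41356 probes brighter, and brightness is not a transcript level that can be set against other probes. At this end of the intensity range the ratio depended on the normalization. It was 0.069 with the processed signals (limma adjusted p = 0.539), where the arrays read -0.01, 0.04 and 0.18, and 0.76 under median centring (limma adjusted p = 0.00127). Without replicate 2 the adjusted p in limma was 0.0565. Among 22143 other tested genes, the 2 with log2 ratios nearest to those of this probe over the 3 arrays were Os01g0761100 at 0.30, 0.32 and 0.42 and Os03g0641200 at 0.30, 0.31 and 0.42. Their distances were 0.017 and 0.020 on the log2 scale. The files used here give no function for these loci.

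DREB1A, a cold-induced activator that in rice was also reported after salt and wounding, is covered by 5 tested probes and was called on 0 of them. The representative probe, to the coding sequence of AF494422, read -0.05, 0.43 and 0.96. Its mean was 0.45 ± 0.18 (SE, n = 3, limma adjusted p = 0.083), and the unadjusted p was 0.0464. The other probes, which span coding sequence and 3' UTR by their names, ranged from -0.71 to -0.53 on replicate 1, from -0.19 to 0.15 on replicate 2 and from 1.13 to 1.79 on replicate 3. On each of the 5 probes replicate 1 was lowest and replicate 3 highest. The means of these other probes were 0.25 to 0.34, with limma adjusted p of 0.492 to 0.603. The probe to AK105599 shows both channels taking part, since its water level was 9.09, 8.45 and 7.82 and its vanadate level 8.38, 8.26 and 9.59. Water likewise fell from replicate 1 to 3 on the other probes that span coding sequence and 3' UTR. It did not fall steadily on the representative probe, at 10.84, 10.23 and 10.69, where vanadate was at 10.79, 10.66 and 11.65. On the slide shared by replicates 1 and 2 the AK105599 probe was called lower at -0.45 (limma adjusted p = 0.0264), and the representative probe was at 0.19 (limma adjusted p = 0.275). The other slide holds 1 array and gives no test. With a fixed block for slide the representative probe was at 0.57 (limma adjusted p = 0.00294), where the arrays of replicates 1 and 2 alone set the spread and replicate 3 counts as much as both. It was also called without replicate 1, at 0.69 (limma adjusted p = 0.0218).

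DREB1B, the other cold-induced activator of the chromosome 9 group, was likewise highest on replicate 3. The probe to AY166833 read -0.15, -0.23 and 1.12, with a mean of 0.25 ± 0.26 (SE, n = 3, limma adjusted p = 0.452). Replicates 1 and 2 were slightly below 0 and replicate 3 well above. Its vanadate level was 7.30, 7.32 and 8.35, against 7.45, 7.55 and 7.22 in water. The probe to AF300972 read -0.35, -0.30 and 0.36, with a mean of -0.10 ± 0.15 (SE, limma adjusted p = 0.61), and each channel was well above background on 1 array only. The third probe, to AK062422, was too dim to be tested and read -0.22, -0.29 and 0.28. Without replicate 3 the mean of the AY166833 probe turned to -0.19 (limma adjusted p = 0.163), and the dimmer AF300972 probe was then called lower at -0.33 (limma adjusted p = 0.0295). With a fixed block for slide the AY166833 probe was called higher at 0.47 (limma adjusted p = 0.00224), although replicates 1 and 2 were below 0. In that fit replicates 1 and 2 alone set the spread, so the p does not measure the gap to replicate 3.

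DREB1E, a less studied DREB1 factor, spread the other way. Its representative probe, to AY258283, read 0.31, -0.82 and -1.17 on replicates 1, 2 and 3, so replicate 1 was higher in vanadate and the others lower. The mean was -0.56 ± 0.26 (SE, n = 3, limma adjusted p = 0.121). The water level was 8.91, 9.70 and 9.65 and the vanadate level 9.22, 8.88 and 8.48. Without replicate 1 the mean was -0.99 and was called lower (limma adjusted p = 0.00426). It was also called with a fixed block for slide at -0.71 (limma adjusted p = 0.0136) and under median centring at -0.68 (limma adjusted p = 0.04998). In the block fit replicates 1 and 2 alone set the spread. The probe to the coding sequence of AY114110, with vanadate above background on 2 arrays and water on 1, read 0.12, -0.27 and 0.28 and was not called (limma adjusted p = 0.781). The 3' UTR probe to CI190270 was not tested and read -0.15, -0.32 and 0.25. The probes for DREB1E therefore disagreed, and the dimmer ones showed no fall on replicate 3.

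DREB1F and DREB1G, which raise drought tolerance when overexpressed in rice, were not well above background in either channel on any array. The DREB1F probe, to AY345234, had median spot signals of 171, 162 and 95 in water and 74, 72 and 64.5 in vanadate. Negative control spots had medians of 160, 154.5 and 89 in water and 67, 68 and 62 in vanadate. The DREB1G probes lay between 97 and 176 in water and between 60.5 and 72 in vanadate. No fold is given for these loci, since both channels were at background and a change in them was not detectable.

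Ordered by the mean log2 ratio of the representative probe, the tested loci ran DREB1C, DREB2A, DREB2B, DREB1A, DREB1H, DREB1B and DREB1E. Differences between neighbours in this order were taken within each array for 6 pairs and tested by an exact permutation of signs, two-sided, which cannot go below 0.25 with 3 arrays. On these probes DREB2A exceeded DREB2B by 0.36, 0.55 and 0.42, a mean of 0.44 ± 0.10 (SD, n = 3, exact p = 0.25, adjusted 0.9). The ranges of this pair did not overlap, but this depends on the probes chosen. The AK121956 probe of DREB2A, at 0.61 to 0.87, overlapped the AK071850 probe of DREB2B, at 0.41 to 0.62. The ranges of the other 5 pairs overlapped. The difference of DREB1C over DREB2A, for example, was 0.45, -0.04 and 1.74, so the first place of DREB1C rests on replicates 1 and 3.

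The members differed in how far the arrays agreed. The SD of the 3 log2 ratios had a median of 0.14 over all 31159 tested probes and a 95th percentile of 0.40. It was 1.31 for the AK105599 probe of DREB1A, larger than in 99.9% of tested probes, and 0.51 for the representative DREB1A probe, larger than in 97.6%. The representative probes of DREB1B, DREB1C and DREB1E had SDs of 0.76, 0.88 and 0.77, larger than in 99.4%, 99.6% and 99.4% of tested probes. DREB1H, at 0.07, and the 5 tested DREB2A and DREB2B probes, at 0.01 to 0.14, lay below the median. On the representative probes replicate 3 exceeded the mean of replicates 1 and 2 by 0.77 for DREB1A, 1.31 for DREB1B and 1.51 for DREB1C. On the AK105599 probe of DREB1A the excess was 2.22. The 95th percentile of all tested probes was 0.44. For the representative DREB1E probe replicate 3 was lower by the same measure, at -0.91, where the 5th percentile was -0.44. These percentiles describe the arrays and are no test.

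**Figure D3:**
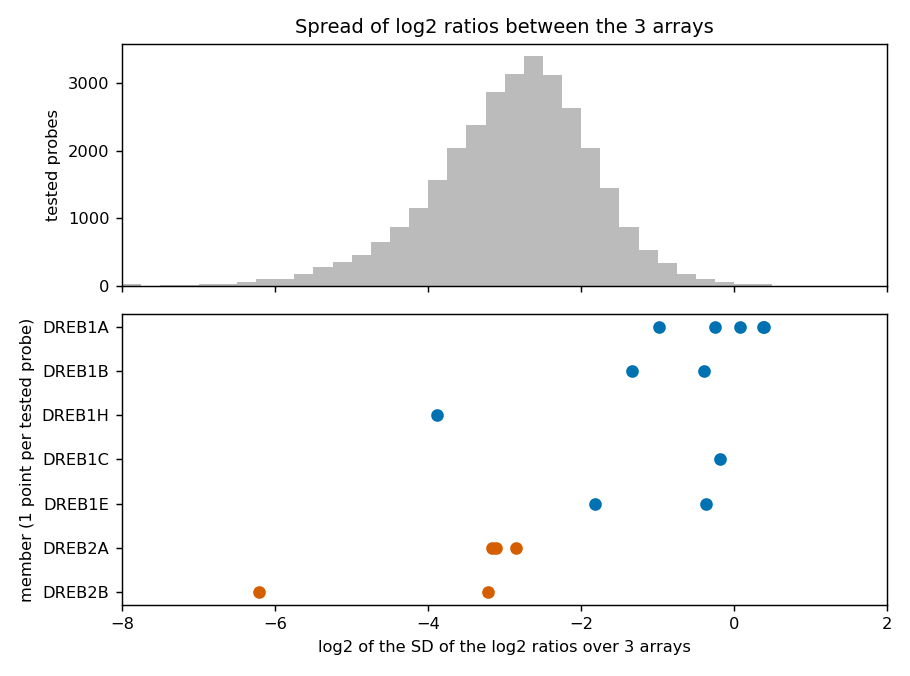
Upper panel, number of tested probes by the log2 of the SD of their log2 ratios over 3 arrays; lower panel, the 16 tested member probes on the same axis, DREB1 in blue and DREB2 in orange. All DREB1A, DREB1B, DREB1C and DREB1E points lie in the right tail or on its slope, and the DREB2 points lie near or left of the peak.

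Replicate 3 also stood apart at 3 of 4 shoot marker loci. Over the 4 loci taken as markers of green tissue from background knowledge, the summed level in water was 552, 520 and 2959 intensity units on replicates 1, 2 and 3, and in vanadate 584, 556 and 696. The water RNA of replicate 3 thus carried more summed signal at these loci than any other pool, and in it all 4 were well above background, against 3 and 1 in water on replicates 1 and 2. Of the 4, Os12g0274700 read -0.21, -0.09 and -0.21 and did not set replicate 3 apart, and the others read -2.93 to -1.70 on replicate 3. The median log2 ratio was 0.11, -0.08 and -1.71, and 0 of the 4 were called in limma, at unadjusted p over 0.05. The 2 root marker loci were called lower, at -2.06 ± 0.20 (SE, limma adjusted p = 0.000399) and -1.02 ± 0.20 (SE, limma adjusted p = 0.00691), with summed levels of 17229 to 18243 in water and 2766 to 5801 in vanadate. The part of these shifts, or of the second slide, in the array pattern of DREB1A, DREB1B, DREB1C and DREB1E was not tested.

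A set of 3 lists of loci around the DREB factors were taken from background knowledge and could not be checked against an annotation. Of 6 further loci placed in the DREB family, 5 were tested, 3 were called higher and 0 lower in limma. Of all tested genes 29.1% were called higher and 20.6% lower. The median log2 ratio of the 5 loci was 0.37, beside 0.02 over all tested genes. Of the 3 called loci, 1 had water signal above background on 1 array only. With probes kept only where every channel of every array was above background, 1 of 3 tested loci was called higher. Os08g0545400 had the largest ratio of the 3 lists, with 3.05, 3.26 and 3.17 on replicates 1, 2 and 3 and a mean of 3.16 ± 0.08 (SE, limma adjusted p = 3.30e-06). Its arrays agreed closely, unlike those of DREB1A or DREB1B, and water signal stood clear of background on 2 arrays. Of 5 loci taken as upstream regulators of DREB1 genes, 3 were tested, 2 were called higher and 0 lower, and the median was 0.58. Os03g0285800, in this list, read 2.27, 2.59 and 2.84, with a mean of 2.57 ± 0.12 (SE, limma adjusted p = 1.96e-05). The 2 untested loci of this list had no probe above background on any array.

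Of 10 loci taken as stress-protein genes downstream of DREB factors, 8 were tested, 6 were called higher and 0 lower in limma. Their median log2 ratio was 1.31, and by array it was 0.98, 0.86 and 1.58. For 3 of the 8 loci, 2 of them called, water signal was above background on 0 or 1 array, so they passed the filter mainly through vanadate. Under the stricter filter on both channels 4 loci were left, of which 3 were called higher, with medians of 0.91, 0.83 and 1.41 by array and 1.03 over the arrays. The share of all tested genes called higher was 29.1% in the main test and 27% under the stricter filter. In the main test 20.6% were called lower. At an unadjusted p under 0.05 in limma the numbers higher in the 3 lists were 3, 2 and 8, and the numbers lower were 0, 1 and 0. By the same measure 7178 of the 22150 tested genes were higher and 5475 lower.

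**Figure D4:**
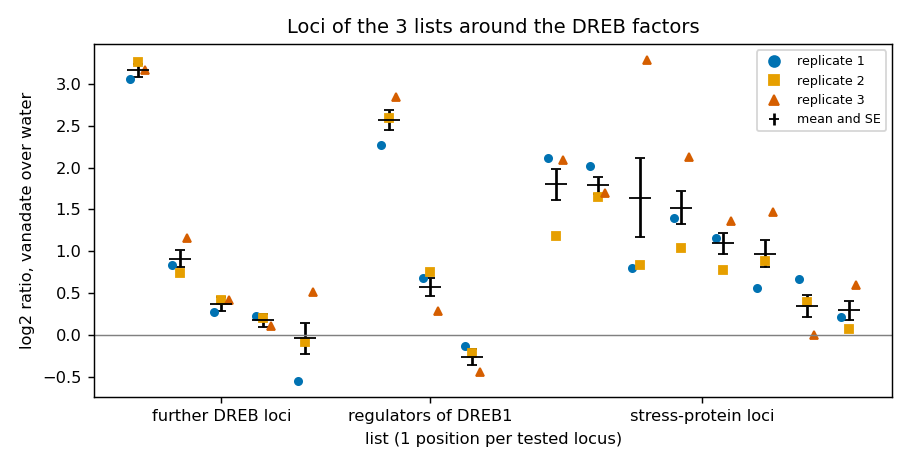
Log2 ratio of vanadate over water (vertical axis) for each tested locus of the 3 lists, with 1 symbol per replicate. A bar with whiskers gives the mean and limma's moderated SE. Most loci lie above 0 on all arrays, with the highest point in the list of further DREB loci.

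The member ratios under other ways of processing kept DREB2A between 0.83 and 1.02 and DREB1C between 1.18 and 2.61, both called each time they could be fitted. DREB2B lay between 0.40 and 0.55 and was called under 13 of 14 alternatives. DREB1H was called under 10 of 14 alternatives, DREB1A under 2, DREB1B under 1 and DREB1E under 3.

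**Figure D5:**
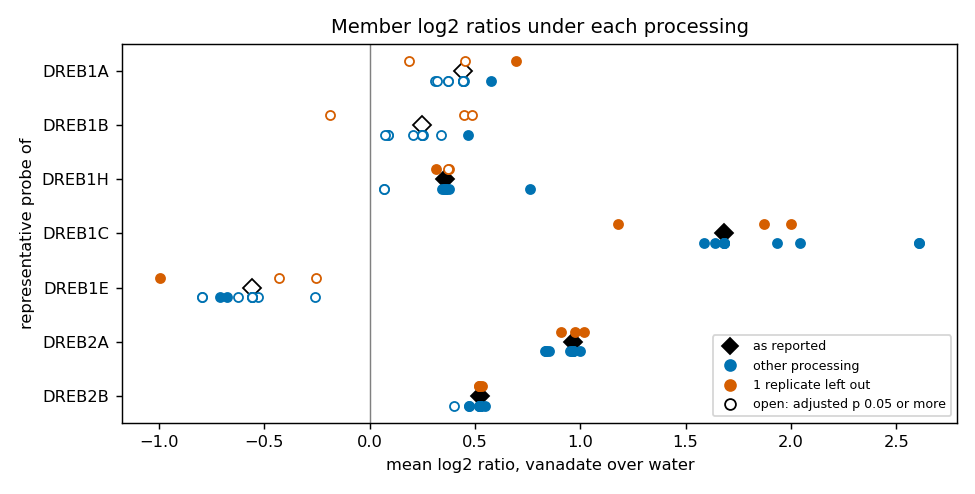
Mean log2 ratio of vanadate over water (horizontal axis) of the representative probe of each tested locus as reported (diamonds), under other processing (blue) and with 1 replicate left out (orange), open where the limma adjusted p was 0.05 or more. The symbols of DREB2A and DREB2B form tight groups right of 0, and those of DREB1B lie on both sides of 0.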

How the data were processed

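Spot intensity values come, per the file headers, from version 10.7.1.1 of Agilent's Feature Extraction software: median signals are uncorrected, while processed signals were background-subtracted and dye-normalized. The log10 ratios in the deposited scanner files were not tested. The authors' deposited table holds log2 ratios. At least 99.1% of its values per array lay within 0.001 of log2 processed red over green, so it runs vanadate over water and is not centred, with medians of -0.19, -0.21 and -0.05. Median signals were corrected with normexp (offset 50) and normalized by loess within arrays in limma 3.58.1 under R 4.3.3. Control spots and spots with outlier flags were left out. A probe was tested with values on all 3 arrays and a channel well above background on at least 2. This kept 31159 of 42418 probes. Means were tested with lmFit and eBayes, with Benjamini-Hochberg adjustment. A gene is its tested probe of highest mean intensity. Channel levels are log2 values after loess and Aquantile. Pairs of arrays had a Pearson's r of 0.89 to 0.93 across tested probes, and probes are not independent replicates. The fit was tested on simulated data, a check of the code whose outcome is not given here and bears on no result. The members and lists were chosen with earlier results of these data known. Genes named outside the members were, by rule, the 2 nearest to the brightest member and the 2 listed loci with the largest called rises. The shoot marker locus Os12g0274700 was named outside this rule. The number of arrays limits the precision.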

Additional observations from a re-analysis of the deposited data

How the results depend on the processing

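Over 14 alternatives the number of members called higher was 3 to 6, against 4. For all tested genes the number called higher was 3373 to 6898, against 6443. All calls rest on 3 arrays with 1 dye orientation. Dim probes limit DREB1F and DREB1G, and leave DREB1B and DREB1E resting mainly on their representative probes. Those 2 probes were well above background in both channels on every array, but their arrays differed in direction. No strict-filter value exists for DREB1C, whose water channel was above background on 2 arrays. With the processed signals the median of all tested genes was -0.11 against 0.02, 42.1% against 58.5% of calls were rises, 6863 genes were lower against 4573, 1 upstream locus was lower, and DREB1H was at 0.069 (0.18 above that median). The deposited table gave 6863 genes lower, 1 upstream locus lower and DREB1H at 0.069. Under median centring 4216 genes were higher against 6443, and 3257 were lower against 4573. With it 1 member and 1 member probe were lower, 1 upstream locus was higher, DREB1E was at -0.68 and DREB2B at 0.40. The strict filter, which tests fewer loci, left 1 further DREB locus and 3 downstream loci higher and 1 upstream locus lower. An intensity trend in the variance gave 1 upstream locus lower. With slide as a fixed block 6898 of the 22150 tested genes were higher and 5138 lower. In that fit 13 member probes were higher and 1 lower, and 1 member and 1 upstream locus were lower. It called DREB1A, DREB1B and DREB1E at 0.57, 0.47 and -0.71, and the arrays of replicates 1 and 2 alone set its spread. With channels as separate samples, the fit with no replicate block, 3373 genes were higher and 1444 lower, 70.0% of calls were rises, 1 further DREB locus was higher, and the call of DREB1H at 0.36 was lost. The main ratio keeps the pairing of channels on an array. Leaving out 1 replicate gave 2793 to 3764 genes lower, 0 to 1 members lower, 0 to 2 member probes lower, DREB1A at 0.19 to 0.69, DREB1B at -0.19 to 0.49, DREB1H at 0.32 to 0.38 and DREB1E at -0.99 to -0.25. DREB1B was reversed without replicate 3, at -0.19. Where no construction is named, the cause was not tested.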
